A study of Homo sapiens with 14 samples.

Results

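HEK293T cells given 4 µM PDP were compared with HEK293T cells given no PDP (0 µM). The genes compared were those with a mean of at least 1 total fragment and at least 0.5 labelled fragments per 1000000 fragments of the library (FPM) over the 4 libraries of the comparison. This kept 13961 of the 57820 genes in the tables, of which 12272 were protein-coding, 537 antisense, 433 pseudogenes and 380 lincRNAs. No fold change entered the choice, but 405 of the genes reached 0.5 labelled FPM at 4 µM and not at 0 µM, and 142 only at 0 µM. At the edge of the labelled filter stood TAPBP, with a mean of 0.500062 FPM (0.314 at 4 µM and 0.686 at 0 µM), and DTX4, left out with 0.499967 FPM. At the edge of the total filter stood ZNF19, kept with 1.00 FPM, and RP11-434D11.4, left out with 0.999 FPM.

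HEK293T is a line of human embryonic kidney cells that carries the SV40 large T antigen. PDP is an analog of pyridostatin, a small molecule that binds and stabilises G-quadruplexes, and the purpose of the experiment was to look for the genes it acts on shortly after it is added. Of the 14 libraries of the series, 2 came from cells with 4 µM PDP and 2 from cells with 0 µM PDP. Both groups received 500 µM 4-thiouridine (s4U) for 1 h, starting 20 min after the addition of PDP where it was given, and the polyadenylated RNA of both was fragmented and treated with acrylonitrile. A further pair of libraries had 8 µM PDP, and they entered only the estimate of spread and the dose values near the end. The labels do not state whether the libraries of a group were cultured separately, and the spread behind each p-value is that between libraries, which may be technical.

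s4U is taken up by cells and built into RNA made during the labelling hour. Acrylonitrile adds a cyanoethyl group to it, after which reverse transcriptase reads the base as C, and a T-to-C mismatch in a sequenced fragment marks it as labelled. Labelled fragments thus come from RNA made after PDP was added and from background mismatches. Mismatches marked 7.63% of the fragments in genes without s4U, beside 13.6% at 4 µM and 17.2% at 0 µM. Unlabelled fragments (total minus labelled) come from older RNA and from new RNA that shows no mismatch. A G-quadruplex is a stack of planes, each made of 4 guanines, that a strand with several runs of G can fold into. Such runs are common close to the starts of human genes, where a folded structure can impede or recruit the proteins of transcription.

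The 4 µM libraries held 22191913 and 22326477 fragments, against 9770956 and 10564894 in the 0 µM libraries. Fragments inside genes made up 89.7% and 88.8% of the library at 4 µM, against 82.6% and 83.0% at 0 µM. Depth and the share inside genes thus moved with the group, and cannot be told apart from PDP in this design. The 0 µM replicates also differed less than the others: their total counts gave a chi-square per degree of freedom of 1.08, against 3.08 for the 4 µM pair, and after thinning every library to the smallest size the values were 1.87 at 4 µM and 1.08 at 0 µM. The 0 µM pair still differed by more than sampling noise (chi-square p = 7.26e-12 over 13834 genes), and they were counted as 2 libraries. With so many genes a value of 1.08 gives such a p-value, which does not show that they were cultured separately. All 7 genes listed as known in HEK293T cells were above 1 FPM, with a summed total level of 1024 to 1035 FPM at 4 µM and 1087 to 1097 FPM at 0 µM. Of 6 genes known in MCF7 breast cancer cells, 2 were above 1 FPM (sums of 105.6 to 109.8 FPM at 4 µM and 86.8 to 87.7 FPM at 0 µM), and so were 2 of 6 blood cell genes (3.29 to 3.36 FPM and 2.84 to 2.97 FPM). The part of any of these in the results was not tested.

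The motif searched for was 4 runs of at least 3 G with 1 to 7 bases between runs (G3+N1-7G3+N1-7G3+N1-7G3+), on both strands of GRCh37 and within 2000 bases of the annotated start of a gene. Of the genes compared, 79.5% held at least 1 such motif, and of all 57820 genes 50.9% did, so a match describes the letters of a window and nothing more. Among motifs of at most 30 bases, the one closest to the start is shown for the 8 genes that the study discusses for PDP. The runs of G are in capitals.
TERT, chr5:1295204-1295221, plus strand, 37 bases upstream of the start of a minus-strand gene: GGGGaGGGGctGGGaGGG
VEGFA, chr6:43737860-43737879, plus strand, 61 bases upstream of a plus-strand gene: GGGGcGGGccGGGGGcGGGG
HRAS, chr11:537870-537894, plus strand, 607 bases upstream of a minus-strand gene: GGGtgctcaGGGttccaGGGtGGGG
BAD, chr11:64052258-64052279, minus strand, 103 bases upstream of a minus-strand gene: GGGGGGGcGGGGccGGGccGGG
NOTCH3, chr19:15311732-15311754, minus strand, 38 bases downstream of the start of a minus-strand gene: GGGaaggaGGGaggaGGGGaGGG
AKT2, chr19:40791257-40791284, minus strand, 159 bases downstream of the start of a minus-strand gene: GGGGGctGGGGGGaGGGGGcGGGGGGGG
SRC, chr20:35972943-35972963, minus strand, 145 bases upstream of a plus-strand gene: GGGctcGGGGGGGaggcaGGG
PIM2, chrX:48776188-48776215, plus strand, 86 bases downstream of the start of a minus-strand gene: GGGGagccaGGGctGGGGGGcgccaGGG

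Such motifs also lie near genes that moved in either direction. The next 4 are shown because HES4 and UBE2S stood lower in labelled RNA at 4 µM while JUN and DHX9 stood higher.
HES4, chr1:935743-935769, plus strand, 217 bases upstream of a minus-strand gene: GGGaGGGGccgctGGGGGcgaacGGGG
UBE2S, chr19:55919348-55919371, plus strand, 226 bases upstream of a minus-strand gene: GGGGGcccgcGGGGGtcGGGaGGG
JUN, chr1:59249974-59249998, minus strand, 213 bases upstream of a minus-strand gene: GGGGaGGGGaccGGGGaagagaGGG
DHX9, chr1:182808621-182808643, plus strand, 117 bases downstream of the start of a plus-strand gene: GGGGcggcGGGGtcgcGGGcGGG

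A smaller share of the fragments in genes was labelled at 4 µM. The labelled share was 13.8% and 13.5% at 4 µM, or 13.6% ± 0.219 (SD, n = 2), against 17.2% in both 0 µM libraries, or 17.2% ± 0.0267 (SD, n = 2). Both 4 µM libraries lay below both 0 µM libraries, and the exact permutation test over the 4 libraries (two-sided) gave p = 0.333, the smallest value it can give. The Wilson 95% intervals were 13.77 to 13.80% and 13.46 to 13.49% at 4 µM, and 17.16 to 17.21% and 17.20 to 17.25% at 0 µM, and cover counting error only. Cells without s4U whose RNA was treated with acrylonitrile, from the other experiment of the series, showed mismatches in 7.63% of their fragments in genes. Above that background, 6.01% of the fragments were labelled at 4 µM and 9.57% at 0 µM. In these bulk libraries fewer transcribing cells and less RNA made per cell cannot be told apart. Neither can be told apart from effects of library preparation, since depth and the share inside genes moved with the group.

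**Figure D1:**
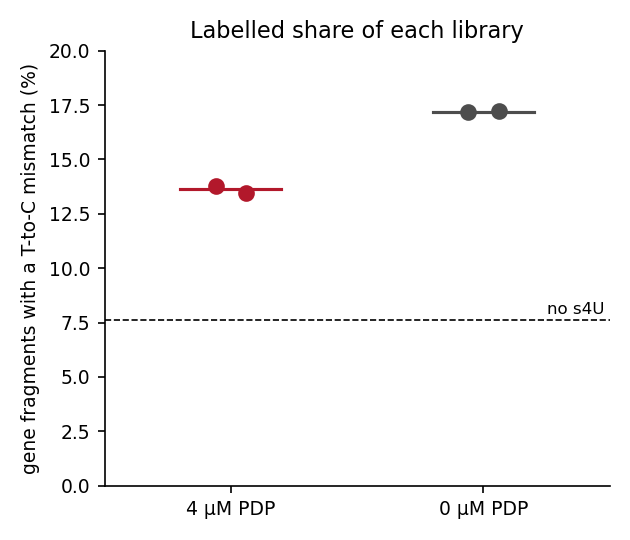
Each point is a library and shows its labelled fragments as a percentage of its fragments in genes, at 4 µM and 0 µM PDP, with the mismatch level without s4U as a line at 7.63%. The 4 µM libraries sit at 13.5 and 13.8%, below both 0 µM libraries at 17.2%.

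Labelled RNA moved in both directions, with more genes lower than higher. At an adjusted p under 0.05 (quasi-likelihood test of edgeR, adjusted over all genes compared after Benjamini and Hochberg, and written edgeR adjusted p from here on), 2820 genes fell (20.2%) and 1271 rose (9.1%) relative to the size of the library. The median fold change over all genes was -0.04 on the log2 scale. Changes beyond 2-fold were the exception, with 331 genes that rose and 160 that fell by more than that. After each library was centred on its median gene, which moved the scale of labelled RNA by -0.06, 2426 genes fell (17.4%) and 1581 rose (11.3%). After removal of the trend of fold change with the GC content of exons, which 13633 genes allow, 1717 fell (12.6%) and 757 rose (5.55%). That removal also centres each library, here and below, so it takes out more than the slope with GC content.

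All 8 genes that the study discusses for PDP fell in labelled RNA, with a median of -0.63. The study chose them on this series, so their direction is not independent evidence. After centring 7 fell, SRC missing the threshold at an edgeR adjusted p of 0.066, and after removal of the GC trend 2 did, VEGFA and PIM2.

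VEGFA, the growth factor that drives the growth of blood vessels, had 10.8 and 12.7 labelled FPM at 4 µM, against 22.8 and 20.4 at 0 µM. It fell by 0.88 ± 0.12 on the log2 scale (SE, edgeR adjusted p = 1.02e-11), and with the GC trend removed its change was -0.72 (edgeR adjusted p = 2.80e-06). Of its fragments, 18.1% and 18.6% were labelled at 4 µM, against 33.0% and 31.9% at 0 µM and 7.12% without s4U. Its labelled RNA thus dropped while its unlabelled RNA stood at 48.8 and 55.3 FPM at 4 µM and 46.4 and 43.4 FPM at 0 µM.

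TERT, the catalytic subunit of telomerase, had 15.5 and 15.1 labelled FPM at 4 µM, against 24.4 and 22.6 at 0 µM. It fell by 0.62 ± 0.11 (edgeR adjusted p = 3.94e-07), but its change was -0.19 (edgeR adjusted p = 0.186) with the GC trend removed. Its labelled share was 18.3% and 17.9% at 4 µM, against 26.2% and 24.1% at 0 µM and 10.4% without s4U. On either measure both 4 µM libraries were below both 0 µM libraries. Of 16 telomerase and shelterin genes 3 fell (18.75%, close to the 20.2% of all genes). They were TERT, the shelterin gene TERF2IP (-0.50 ± 0.12) and NHP2, of the telomerase RNA complex (-0.35 ± 0.12). NHP2 lost its call without the first or the second 0 µM library (edgeR adjusted p = 0.131 and adjusted p = 0.064) and without the GC trend (adjusted p = 0.054).

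HRAS, a small GTPase that relays growth factor signals, had 10.3 and 11.5 labelled FPM at 4 µM, against 15.97 and 16.5 at 0 µM. It fell by 0.57 ± 0.13 (edgeR adjusted p = 7.25e-05), with -0.07 (edgeR adjusted p = 0.736) once the GC trend was removed. NOTCH3, a receptor of the Notch pathway, had 11.8 and 12.8 labelled FPM at 4 µM, against 18.6 and 20.0 at 0 µM, and fell by 0.65 ± 0.12 (edgeR adjusted p = 7.09e-07, and -0.25 with edgeR adjusted p = 0.094 without the GC trend). The labelled share of NOTCH3 was 5.76% and 6.38% at 4 µM, against 8.51% and 8.64% at 0 µM, next to 5.50% without s4U, so most of its fragments counted as labelled at 4 µM are at the level of background mismatches.

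AKT2, a kinase of the insulin and growth factor pathway, had 24.6 and 24.0 labelled FPM at 4 µM, against 31.2 and 32.7 at 0 µM, a fall of 0.40 ± 0.09 (edgeR adjusted p = 0.000203, and -0.20 with edgeR adjusted p = 0.097 without the GC trend). BAD, a member of the BCL-2 family that promotes cell death, had 3.24 and 2.96 labelled FPM at 4 µM, against 4.81 and 5.21 at 0 µM, a fall of 0.69 ± 0.21 (edgeR adjusted p = 0.00658). Without the GC trend BAD stood at -0.22 (edgeR adjusted p = 0.501), and without the second 0 µM library its edgeR adjusted p was 0.098. Its labelled share was 8.12% and 6.65% at 4 µM, against 10.4% and 11.04% at 0 µM, with 6.17% without s4U.

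SRC and PIM2 rested on single libraries. SRC, a tyrosine kinase at the cell membrane, had 8.70 and 9.67 labelled FPM at 4 µM, against 13.2 and 10.7 at 0 µM (-0.37 ± 0.14, edgeR adjusted p = 0.0291), and without the first 0 µM library its change was -0.22 (edgeR adjusted p = 0.445). Without the first 4 µM library the edgeR adjusted p for SRC was 0.174. PIM2, a kinase that favours survival and growth, had 2.12 and 1.97 labelled FPM at 4 µM, against 3.99 and 2.84 at 0 µM (-0.73 ± 0.25, edgeR adjusted p = 0.0181). Without the first 0 µM library PIM2 was at -0.47 (edgeR adjusted p = 0.357), and without the second 4 µM library its edgeR adjusted p was 0.076. DESeq2 called 5 of the 8 genes and left out BAD (DESeq2 adjusted p = 0.109), SRC (adjusted p = 0.254) and PIM2 (adjusted p = 0.183).

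**Figure D2:**
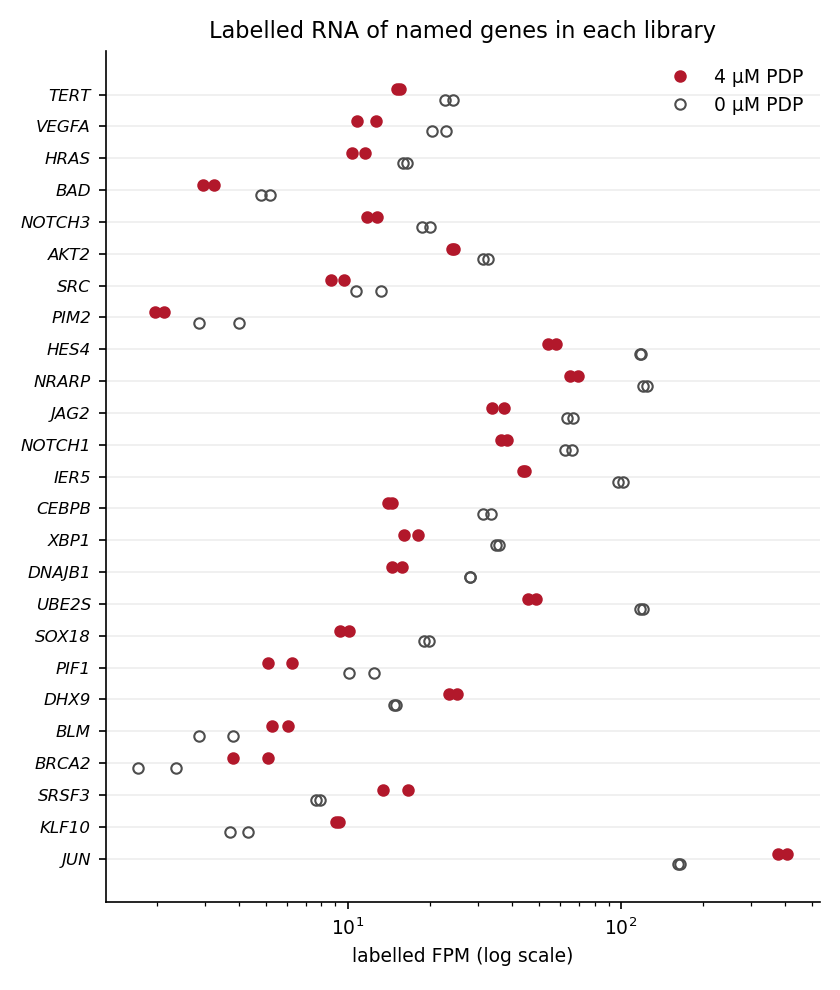
Each row is a gene and each point a library, with labelled FPM on a log axis at 4 µM and 0 µM PDP. At 4 µM the libraries of DHX9, BLM, BRCA2, SRSF3, KLF10 and JUN sit to the right of those at 0 µM, and those of the other genes drawn sit to the left.

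Of the wider set of 21 genes with well-studied G-quadruplex promoters, 6 fell (28.6%, beside 20.2% of all genes). In this set 1 gene rose (NRAS, named after its value was seen), and the median was -0.19, beside -0.04 over all genes. With the GC trend removed 1 of the 21 fell, and 12.6% of all genes did. Among 28 signalling genes of the RAS, SRC, PI3K, AKT and PIM families, 9 fell (32.1%) and 2 rose (7.14%, beside 9.1% of all genes). Their median was -0.13, and without the GC trend 3 of the 28 fell. PIM3, a kinase related to PIM2, had 107 and 105 labelled FPM at 4 µM, against 168 and 169 at 0 µM (-0.67 ± 0.06). MAP2K2, the kinase upstream of ERK, had 31.0 and 31.1, against 50.6 and 50.2 (-0.70 ± 0.08), and AKT1 had 22.2 and 22.5, against 34.8 and 33.6 (-0.61 ± 0.09). Without the GC trend PIM3 and AKT1 no longer passed (edgeR adjusted p = 0.081 and adjusted p = 0.075), and MAP2K2 did (adjusted p = 0.00216).

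Genes of the Notch pathway, in which ligands on one cell release a transcription activator from receptors on its neighbour, moved in both directions. Of 27 members compared, 10 fell (37.0%, beside 20.2% of all genes) and 4 rose (14.8%, beside 9.1%), with a median of -0.13. Without the GC trend 6 fell and 1 rose, where 12.6% and 5.55% of all genes did. HES4, a repressor of the HES family, had 53.9 and 57.6 labelled FPM at 4 µM, against 118 and 117 at 0 µM. It fell by 1.08 ± 0.07 (edgeR adjusted p = 3.23e-40), and by 0.38 (adjusted p = 8.84e-06) without the GC trend. G and C made up 73.8% of its exon bases. NRARP, a small inhibitor induced by Notch, fell to 64.8 and 69.5 FPM at 4 µM, against 120 and 124 at 0 µM (-0.87 ± 0.07). The ligand JAG2 fell to 33.7 and 37.2 FPM, against 66.8 and 63.2 (-0.87 ± 0.08), and the receptor NOTCH1 to 36.5 and 38.2 FPM, against 66.0 and 62.2 (-0.78 ± 0.08). All 3 also fell without the GC trend, by 0.57, 0.41 and 0.35. Unlabelled RNA of HES4 fell as well, with 306 and 338 FPM at 4 µM, against 477 and 482 at 0 µM (-0.57 ± 0.05, edgeR adjusted p = 3.38e-11).

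Of 11 SOX genes 7 fell (63.6%, where 20.2% of all genes did), with a median of -0.68, and without the GC trend 4 fell and the median was -0.19. SOX genes encode regulators of development and cell identity. SOX18 had 10.1 and 9.36 labelled FPM at 4 µM, against 19.8 and 19.03 at 0 µM (-0.99 ± 0.12), SOX12 had 63.8 and 62.8, against 113 and 112 (-0.83 ± 0.07), SOX9 had 5.77 and 6.49, against 12.5 and 10.0 (-0.87 ± 0.15), and SOX8 had 7.21 and 8.60, against 12.6 and 12.7 (-0.68 ± 0.14). SOX12, SOX18 and SOX9 kept their call without the GC trend and SOX8 did not (edgeR adjusted p = 0.351). Of 20 KLF and SP genes 7 fell and 4 rose (4 and 2 without the GC trend). Of 37 HOX genes 11 fell and 2 rose (5 and 4 of 36 without the GC trend). The shares over all genes were 20.2% that fell and 9.1% that rose (12.6% and 5.55% without the GC trend). Of 37 ZBTB genes 8 fell and 2 rose, and their 21.6% that fell is close to the 20.2% of all genes. ZBTB7A, a zinc finger repressor with 25 motifs near its start, had 92.6 and 90.8 labelled FPM at 4 µM, against 154 and 158 at 0 µM (-0.77 ± 0.06). KLF5, with 0 motifs, had 14.0 and 10.9, against 22.5 and 21.3 (-0.81 ± 0.11). Without the GC trend ZBTB7A was at -0.44 and KLF5 at -0.99. Over all genes 9.51% of those with 0 motifs fell and 46.3% of those with 10 or more.

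Early response genes, which cells switch on within minutes of a signal, moved in both directions. Of 45 compared, 15 fell (33.3%, beside 20.2% of all genes) and 8 rose (17.8%, beside 9.1%), and without the GC trend the balance turned, with 8 that fell and 10 that rose. JUN, a subunit of the AP-1 transcription factor, had 376 and 406 labelled FPM at 4 µM, against 162 and 164 at 0 µM. It rose by 1.26 ± 0.06 (2.40-fold, edgeR adjusted p = 4.51e-66), and by 1.39 without the GC trend. There are 5 motifs near its start. KLF10, a repressor that responds to TGF-beta, had 9.28 and 9.05 labelled FPM at 4 µM, against 4.30 and 3.69 at 0 µM (1.20 ± 0.18). Unlabelled RNA of both genes rose as well. JUN had 253 and 281 unlabelled FPM at 4 µM, against 88.5 and 98.5 at 0 µM (1.51 ± 0.06), and KLF10 had 7.66 and 6.90, against 2.46 and 1.70 (1.81 ± 0.22). Relative to library size the unlabelled change of JUN was thus the larger, and after centring on the median gene it was the smaller, at 1.11 beside 1.32 in labelled RNA. For KLF10 the centred values were 1.41 unlabelled and 1.26 labelled.

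IER5, an early gene that acts with heat shock factor, went the other way. Its labelled RNA was 43.6 and 44.7 FPM at 4 µM, against 102 and 97.7 at 0 µM (-1.18 ± 0.07, edgeR adjusted p = 3.72e-43), and its change without the GC trend was -1.23. No motif lies within 2000 bases of its start. Of its fragments 34.3% and 33.3% were labelled at 4 µM, against 57.8% and 56.5% at 0 µM. ZFP36L2, which marks mRNAs with AU-rich tails for decay, fell by 0.66 ± 0.06 in labelled RNA, and MAFK, a small Maf protein, by 0.85 ± 0.08.

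Genes of the integrated stress and unfolded protein responses, which cells raise when translation or protein folding is disturbed, fell in 13 of 34 cases (38.2%). They rose in 1 (2.94%, ATF3, named after its value was seen), with a median of -0.28. Of all genes 20.2% fell and 9.1% rose. XBP1, whose spliced form activates folding genes, had 16.1 and 18.0 labelled FPM at 4 µM, against 35.6 and 34.9 at 0 µM (-1.05 ± 0.10, and -1.20 without the GC trend). CEBPB, a partner of ATF4, had 14.0 and 14.5, against 31.2 and 33.4 (-1.18 ± 0.10). SESN2, a stress-induced leucine sensor, had 22.9 and 23.2, against 34.8 and 39.6 (-0.69 ± 0.09), and SLC7A5, a transporter of large amino acids, had 100 and 100, against 149 and 145 (-0.55 ± 0.06). CHAC1, which breaks down glutathione, was among the 10 largest falls, with 0.451 and 0.448 FPM against 1.94 and 1.51 (-1.92 ± 0.41). CHAC1 passed the filter of 0.5 labelled FPM only through the 0 µM libraries. The count of 13 that fell was the same without the GC trend.

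Chaperone genes of the heat shock response fell in 8 of 24 cases (33.3%, beside 20.2% of all genes) and rose in 3 (12.5%, beside 9.1%). Without the GC trend 5 fell and 2 rose. HSPA1B, an inducible HSP70, had 2.93 and 3.31 labelled FPM at 4 µM, against 8.49 and 6.53 at 0 µM (-1.26 ± 0.19), though 22 of 34 fragments carried a mismatch without s4U, and it has a near-identical copy in HSPA1A. DNAJB1, a co-chaperone of HSP70, had 14.6 and 15.8, against 27.9 in both 0 µM libraries (-0.88 ± 0.10), and FKBP4, a co-chaperone of HSP90, had 26.0 and 29.9, against 45.4 and 46.9 (-0.72 ± 0.08). HSF1, the factor that switches these genes on, had 35.1 and 32.2, against 45.9 and 52.9 (-0.56 ± 0.08), and did not pass without the GC trend (edgeR adjusted p = 0.661).

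Of 24 p53 target genes 5 fell (20.8%, close to the 20.2% of all genes), with a median of -0.18. BBC3, which encodes the death-promoting protein PUMA, had 10.1 and 9.99 labelled FPM at 4 µM, against 19.7 and 18.5 at 0 µM (-0.92 ± 0.12). PHLDA3, an inhibitor of AKT, fell by 0.72 ± 0.16 and AEN, a nuclease, by 0.36 ± 0.08. SESN2, described above, was the fourth and BTG2, named after its value was seen, the fifth. Of 17 BCL-2 family genes 4 fell (23.5%, close to the 20.2% of all genes), BBC3, BAD, BCL2L12 and MCL1 (-0.46 ± 0.08). In this family 1 rose (5.88%, beside 9.1% of all genes), BCL2L13 (named after its value was seen).

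Mitotic genes had a median of 0.03 and 7 of 34 fell (20.6%, close to the 20.2% of all genes). The 2 ubiquitin-conjugating enzymes of the anaphase-promoting complex were among them. UBE2S, which extends the ubiquitin chains, had 45.7 and 48.9 labelled FPM at 4 µM, against 117 and 120 at 0 µM (-1.33 ± 0.07, edgeR adjusted p = 2.30e-54, and -1.21 without the GC trend). Its unlabelled RNA was 587 and 608 FPM at 4 µM, against 837 and 824 at 0 µM (-0.48 ± 0.05, edgeR adjusted p = 2.37e-10), a fall in a measure in which 661 genes fell (4.73%). UBE2C, which starts the chains, had 8.43 and 7.97 labelled FPM, against 13.2 and 15.8 (-0.83 ± 0.14).

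Genes of DNA repair by homologous recombination rose more often than they fell. Of 33 compared, 7 rose (21.2%, beside 9.1% of all genes) and 4 fell (12.1%, beside 20.2%) with a median of 0.29. Without the GC trend 2 rose (median 0.19). BRCA2, a protein needed for this kind of repair, had 5.09 and 3.81 labelled FPM at 4 µM, against 2.35 and 1.70 at 0 µM (1.14 ± 0.25, edgeR adjusted p = 6.80e-05). BLM, a helicase that can unwind G-quadruplexes, had 6.04 and 5.29, against 3.79 and 2.84 (0.78 ± 0.21), and did not pass without the second 0 µM library (edgeR adjusted p = 0.118). XRCC3, which acts in the same repair, fell by 0.50 ± 0.09 and FANCA, of the Fanconi core complex, by 0.33 ± 0.09, both only with the GC trend in place, and FANCA only with the second 0 µM library (edgeR adjusted p = 0.139 without it). Relative to library size the unlabelled RNA of this list rose in 29 of 33 genes with a median of 0.89, where 60.6% of all genes rose with a median of 0.41. After centring 21 rose and 4 fell (median 0.49), beside 26.6% and 27.9% of all genes. Without the GC trend 12 rose and 3 fell (median 0.20), beside 2140 and 3686 of all 13633 genes.

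Helicases and proteins that bind G-quadruplexes split by gene. Of 28, 10 rose and 7 fell, where 9.1% and 20.2% of all genes did. Without the GC trend 3 rose and 5 fell, where 5.55% and 12.6% of all genes did. DHX9, a helicase of RNA and DNA structures, had 25.2 and 23.4 labelled FPM at 4 µM, against 14.7 and 14.96 at 0 µM (0.71 ± 0.11, edgeR adjusted p = 4.16e-09, and 0.51 without the GC trend). PIF1, another helicase of the group, went the other way with 5.09 and 6.23, against 10.1 and 12.5 (-1.002 ± 0.16, and -0.74 without the GC trend). The zinc finger factors MAZ and YY1, both reported to bind G-quadruplex DNA, fell by 0.57 ± 0.06 and 0.66 ± 0.07, and MAZ lost its call without the GC trend (edgeR adjusted p = 0.477).

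SR proteins and hnRNPs, which bind nascent transcripts and steer splicing, also split, with 12 of 33 lower (36.4%) and 6 higher (18.2%). Of all genes 20.2% fell and 9.1% rose. SRSF3 had 16.6 and 13.4 labelled FPM at 4 µM, against 7.88 and 7.67 at 0 µM (0.95 ± 0.14). HNRNPAB had 94.2 and 96.7, against 165 and 155 (-0.74 ± 0.06), HNRNPU had 190 and 186, against 293 and 291 (-0.63 ± 0.06), and SRSF2 had 151 and 153, against 217 and 213 (-0.50 ± 0.06). HNRNPU and SRSF2 stood lower still without the GC trend, at -0.87 and -0.64. Among 32 genes of cleavage, polyadenylation and the Integrator complex 7 fell (21.9%) and 2 rose, with INTS1 at -0.74 ± 0.08, the poly(A)-binding protein gene PABPN1 at -0.72 ± 0.09, the scaffold SYMPK at -0.60 ± 0.09 and CPSF1 at -0.59 ± 0.09 (not called without the GC trend, edgeR adjusted p = 0.274). Among 40 genes of RNA polymerase II and its general factors 9 fell (22.5%) and 2 rose. The shares that fell in these 2 lists are close to the 20.2% of all genes.

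Of 25 abundant long noncoding RNAs compared 9 rose (36.0%, beside 9.1% of all genes) and 5 fell (20.0%, beside 20.2%), with a median of 0.18. Without the GC trend 4 rose and 5 fell, with a median of 0.07. Of all 380 lincRNA genes 13.2% rose and 9.47% fell, with a median of 0.15, where 9.02% of 12272 protein-coding genes rose and 21.4% fell. MIR17HG, the host of a cluster of microRNAs that promote growth, had 12.9 and 12.1 labelled FPM at 4 µM, against 18.9 and 18.6 at 0 µM (-0.58 ± 0.12), and the hosts of small nucleolar RNAs SNHG7 and SNHG12 fell by 0.59 ± 0.08 and 0.69 ± 0.14.

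Genes of the translation and energy machinery had medians of 0.05 to 0.12, beside -0.04 over all genes. Of 83 cytosolic ribosomal protein genes 18 rose and 18 fell, and of 77 mitochondrial ribosomal protein genes 7 rose and 13 fell. Of 45 proteasome genes 1 rose and 4 fell, and of 80 nuclear genes of oxidative phosphorylation 9 rose and 12 fell. Over all genes 9.1% rose and 20.2% fell. RPS2 had 138 and 148 labelled FPM at 4 µM, against 211 and 214 at 0 µM (-0.57 ± 0.06), and RPS4X had 49.8 and 48.3, against 31.6 and 31.7 (0.63 ± 0.08). Both are proteins of the small ribosomal subunit, and their genes moved in opposite directions. Over all fragments of ribosomal protein genes the labelled share was 8.78% at 4 µM and 10.1% at 0 µM, near the 7.63% seen without s4U. Of 24 cholesterol genes 5 fell (20.8%), and of 25 replication-licensing genes 2 rose (8.0%) and CDT1 fell (-0.64 ± 0.06). Of 28 replication-dependent histone genes 2 rose and 2 fell (7.14% each). Of 31 Mediator genes 6 rose (19.4%, where 9.1% of all genes did) and 6 fell, and without the GC trend 2 rose and 4 fell. Of 11 interferon-stimulated genes IFITM3 rose (1.43 ± 0.58) and IRF1 fell (-1.0003 ± 0.29). Both rested on single libraries: IFITM3 lost its call without any 1 of the 4 libraries (edgeR adjusted p of 0.062 to 0.221), and IRF1 was at -0.65 (edgeR adjusted p = 0.269) without the first 0 µM library.

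**Figure D3:**
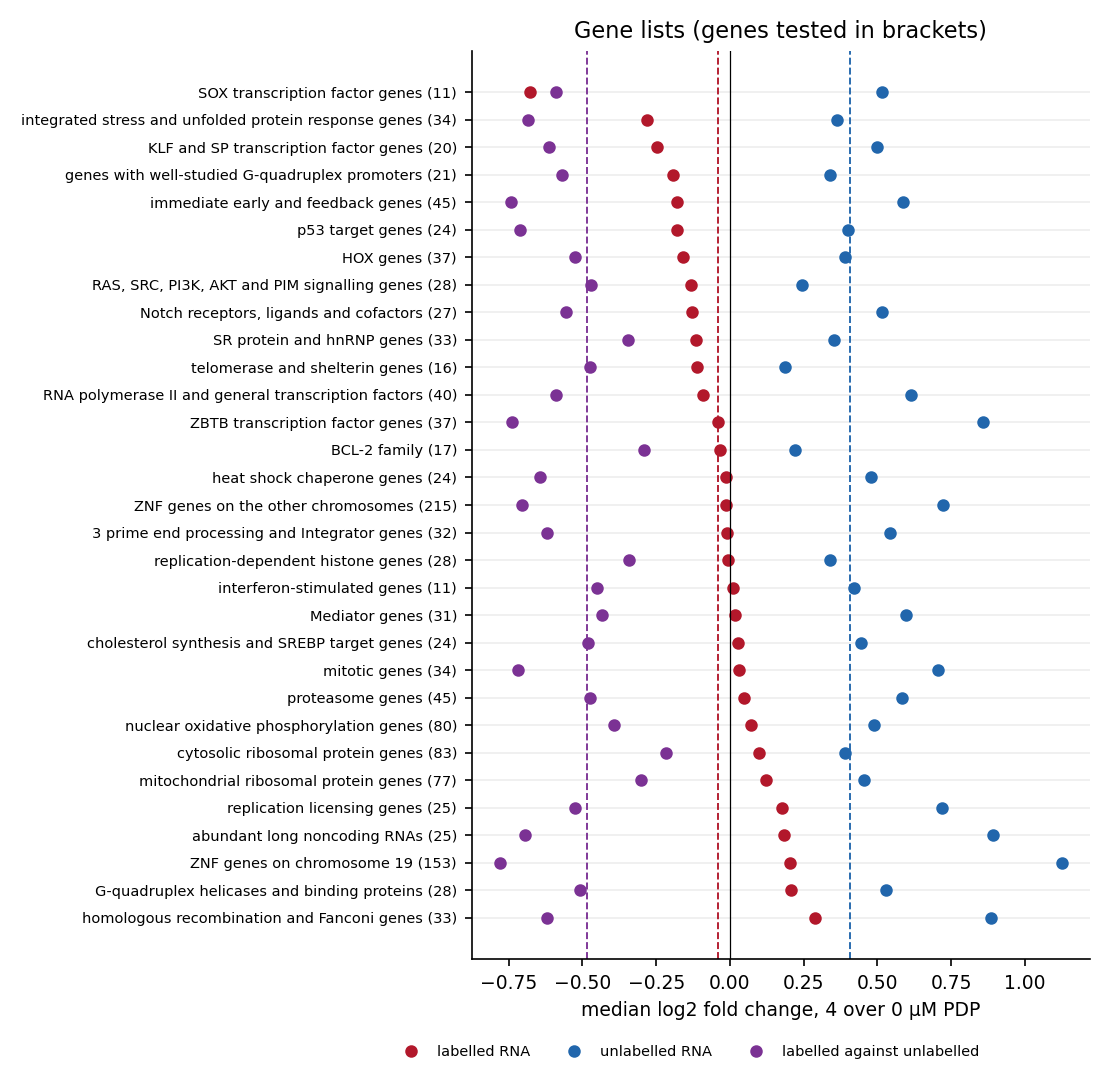
Each row is a gene list with the number of genes compared in brackets, and each point is its median log2 fold change of labelled, unlabelled or labelled against unlabelled RNA, 4 µM over 0 µM PDP. SOX genes have the lowest labelled median (-0.68) and homologous recombination genes stand at 0.29 in labelled and 0.89 in unlabelled RNA. All values are relative to library size.

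The 10 largest falls of labelled RNA were in genes of low level, and 0 of the 10 had a mean labelled FPM of at least 2. CAV2, a protein of caveolae, had 0.856 and 0.806 labelled FPM at 4 µM, against 2.66 and 2.56 at 0 µM (-1.64 ± 0.33, edgeR adjusted p = 9.31e-06). CELF6, a splicing factor of neurons, had 0.270 and 0.0896, against 0.716 and 0.947 (-2.17 ± 0.61), and the neurotrophic factor gene PSPN 0.360 and 0.134, against 0.819 and 0.852 (-1.73 ± 0.57). CELF6 and PSPN passed the filter of 0.5 labelled FPM only through the 0 µM libraries. The others were TBC1D3H, PTGER1, CHAC1, RP11-272P10.2, RP4-728D4.2, ZDHHC8P1 and LINC00202-1, between -2.24 and -1.61. DESeq2 gave none of these 10 an adjusted p, since it filters genes of low counts, and its fold changes were -2.22 to -1.58. The edgeR call was lost without the first 0 µM library by PTGER1, ZDHHC8P1, LINC00202-1 and PSPN, without the second by LINC00202-1, PSPN and CELF6, without the first 4 µM library by ZDHHC8P1 and PTGER1, and without the second by PSPN, LINC00202-1 and CELF6 (edgeR adjusted p of 0.051 to 0.485). TBC1D3H has near-identical copies and ZDHHC8P1 is a pseudogene, so their counts are uncertain.

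The 10 largest rises included several pseudogenes and copies, and only 3 of the 10 had a mean labelled FPM of at least 2. RP11-478C6.4 had 13.6 and 13.2 labelled FPM at 4 µM, against 1.23 in both 0 µM libraries, but every fragment of it carried a mismatch, also without s4U, so it is no measure of new RNA. XXbac-B135H6.15 had 2.39 and 1.84 labelled FPM at 4 µM, against 0.307 and 0.0947 at 0 µM (3.38 ± 0.51), and RP11-46C24.5 had 4.28 and 3.67, against 0.512 and 0.284 (3.31 ± 0.37). The 0 µM means of both were below the filter of 0.5 labelled FPM, which they passed only through the 4 µM libraries. EIF5AL1, HSP90AA4P, HMGB3P22 and MTND5P11 are copies of expressed genes and their values are uncertain.

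In contrast to labelled RNA, unlabelled RNA was higher at 4 µM for most genes. Relative to library size 8456 genes rose (60.6%) and 661 fell (4.73%), with a median of 0.41. Total RNA had 7475 genes that rose (53.5%) and 1096 that fell (7.85%), with a median of 0.30. These counts follow the scale: the median gene stood 0.40 higher at 4 µM in unlabelled and 0.30 higher in total RNA, and after centring on it 3715 genes rose (26.6%) and 3894 fell (27.9%) in unlabelled RNA, and 3793 rose (27.2%) and 3918 fell (28.1%) in total RNA. The rise of the median gene moved with the share of fragments in genes, which was 89.7% and 88.8% at 4 µM and 82.6% and 83.0% at 0 µM, and its part in the result was not tested.

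TXNIP, a protein that binds thioredoxin and limits glucose uptake, was among the 10 largest rises of unlabelled RNA. It had 1.80 and 2.46 unlabelled FPM at 4 µM, against 0.205 and 0 at 0 µM (edgeR adjusted p = 6.67e-07). That was 95 fragments at 4 µM and 2 at 0 µM, a ratio of 21.7 (95% counting interval 5.84 to 182). Its labelled RNA rose too, with 6.35 and 6.05 FPM, against 1.33 in both 0 µM libraries (2.22 ± 0.26). WDR89, a WD-repeat gene, had 2.16 and 1.93 unlabelled FPM, against 0.102 and 0 (edgeR adjusted p = 2.68e-07), or 91 fragments and 1, a ratio of 41.6 (7.28 to 1660). ZNF genes on chromosome 19, which encode zinc finger repressors, had unlabelled RNA that rose in 126 of 153 cases and fell in 4. Their median was 1.12, where 60.6% of all genes rose with a median of 0.41. After centring 78 rose and 8 fell (median 0.72), and without the GC trend 35 of 151 rose and 6 fell (median 0.48). Their labelled RNA rose in 13 (8.50%) and fell in 16 (10.5%), with a median of 0.20. Of 215 ZNF genes on other chromosomes 15 rose (6.98%) and 46 fell (21.4%) in labelled RNA, beside 9.1% and 20.2% of all genes.

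HES4 and UBE2S, above, were among the 661 genes whose unlabelled RNA fell. Among the others named, HNRNPAB had 820 and 875 unlabelled FPM at 4 µM, against 1058 and 1042 at 0 µM (-0.31 ± 0.04, edgeR adjusted p = 2.48e-07), RPS2 had 1477 and 1600, against 2039 and 2042 (-0.41 ± 0.04), and TAF10, a subunit of the general factor TFIID, had 113 and 129, against 172 and 177 (-0.53 ± 0.06). Relative to library size most genes of the lists that hold them rose in unlabelled RNA, as 60.6% of all genes did. Of 33 SR protein and hnRNP genes 19 rose and 6 fell, and after centring 11 rose and 14 fell. Of 83 cytosolic ribosomal protein genes 61 rose and 6 fell, and after centring 26 and 33. Of 40 genes of RNA polymerase II and its general factors 28 rose and 1 fell, and after centring 17 and 12. After centring 26.6% of all genes rose and 27.9% fell. Without the GC trend the lists had 3 and 18 of 32, 14 and 45 of 83, and 12 and 9 of 40, beside 2140 and 3686 of all 13633 genes. The largest called falls were in RPS2P55, a pseudogene of RPS2 whose counts cannot be told from its parent's with certainty (-1.04 ± 0.09), and in F8A3 (-0.97 ± 0.36). IZUMO4 (-0.71 ± 0.28), MAPK15 (-0.64 ± 0.15) and PDIA2 (-0.60 ± 0.16) followed. Left-out libraries took the calls of F8A3 (edgeR adjusted p = 0.108 without the second 0 µM library), IZUMO4 (adjusted p = 0.138 without the first) and PDIA2 (adjusted p = 0.080 without the first 4 µM library).

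The labelled share of a gene was tested as labelled against unlabelled RNA of the same libraries, with the library as a block. By that measure 6500 genes fell (46.6%) and 33 rose (0.236%), with a median of -0.48, and after centring 940 fell (6.73%) and 507 rose (3.63%). Relative to library size, of the 2820 genes with less labelled RNA, 775 had more unlabelled RNA, 1489 were not called in it and 556 had less. Of the 1271 with more labelled RNA, 1184 also had more unlabelled RNA. Higher labelled RNA with lower unlabelled RNA occurred in 1 gene. These counts follow the scale. After centring, of the 2426 genes with less labelled RNA, 62 had more unlabelled RNA, 521 were not called in it and 1843 had less. Of the 1581 with more labelled RNA after centring, 1109 had more unlabelled RNA and 34 had less.

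ZNF503, a zinc finger repressor of development, and MED26, a Mediator subunit that links to elongation factors, were among those with less labelled and more unlabelled RNA. ZNF503 had 372 and 366 labelled FPM at 4 µM, against 524 and 518 at 0 µM (-0.50 ± 0.05), while its unlabelled RNA was 781 and 780, against 391 and 393 (0.99 ± 0.05). Its labelled share was 32.3% and 31.9% at 4 µM, against 57.3% and 56.8% at 0 µM (-1.49 ± 0.04 for labelled against unlabelled, edgeR adjusted p = 5.71e-68, and -1.04 after centring). MED26 had 34.5 and 33.8 labelled FPM, against 44.3 and 44.2 (-0.37 ± 0.08), and 45.6 and 39.1 unlabelled FPM, against 20.2 and 18.3 (1.14 ± 0.10). Its labelled share was 43.1% and 46.4% at 4 µM, against 68.7% and 70.8% at 0 µM. Without the GC trend the labelled falls of both genes missed the threshold (edgeR adjusted p = 0.174 for ZNF503 and adjusted p = 0.781 for MED26).

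IRF1, a transcription factor of interferon responses, had a labelled share of 23.2% and 22.2% at 4 µM, against 54.2% and 43.1% at 0 µM (-1.71 ± 0.36, edgeR adjusted p = 3.95e-05). ZNF296 stood at 53.5% and 55.1%, against 77.5% and 75.3%, DNAJB1 at 12.4% and 13.9%, against 29.4% and 27.7%, and MRPS6, of the mitochondrial ribosome, at 21.5% and 21.1%, against 44.1% and 40.2%. The ribosomal protein genes were at the other end, with a median of -0.22 against -0.48 over all genes. Relative to library size 0 of 83 rose and 40 fell (0.236% and 46.6% of all genes), and after centring 33 rose and 2 fell (3.63% and 6.73%). Over all their fragments the labelled share was 8.78% at 4 µM and 10.1% at 0 µM, near the 7.63% seen without s4U. It thus had little room to fall, and the part of this floor in the result was not tested. Among the 10 largest rises of labelled share, SPON2, a secreted matrix protein, had 64.8% and 59.6% at 4 µM, against 32.1% and 28.6% at 0 µM (1.90 ± 0.45), and LYL1, a transcription factor of blood cells, 69.7% and 75.6%, against 40.0% and 33.3% (2.22 ± 0.75). LYL1 lost that call without the second 0 µM library (edgeR adjusted p = 0.123) or the second 4 µM library (adjusted p = 0.057).

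**Figure D4:**
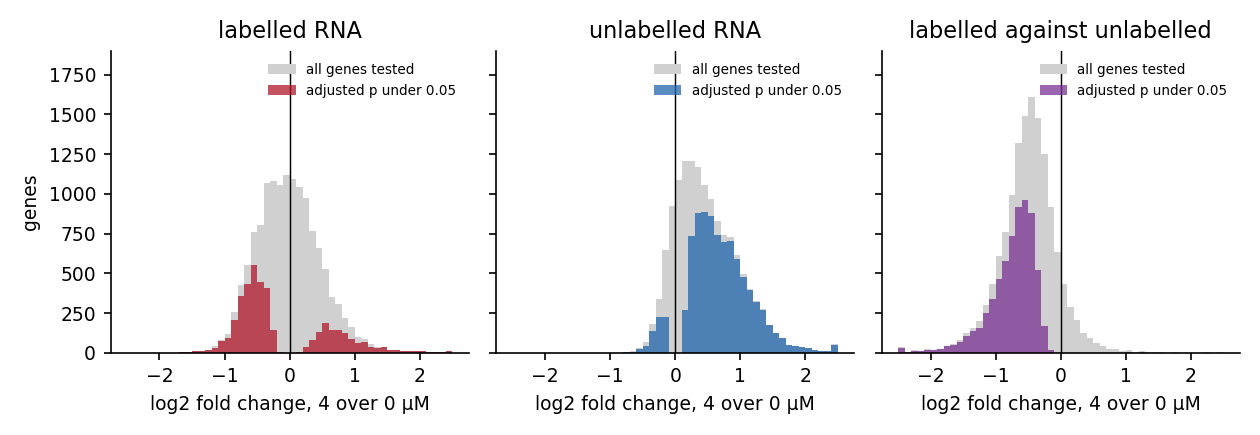
Histograms of the log2 fold change, 4 µM over 0 µM PDP, over 13961 genes for labelled RNA, unlabelled RNA and labelled against unlabelled RNA, with values beyond 2.5 in either direction gathered in the end bins. Labelled RNA is centred close to 0 (median -0.04), unlabelled RNA is shifted up (0.41) and labelled against unlabelled RNA down (-0.48).

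Genes with more G-quadruplex motifs near their start had lower labelled RNA. The median was 0.15 for 2859 genes with no motif and 0.05, -0.05, -0.09, -0.23 and -0.38 for genes with 1, 2, 3 to 4, 5 to 9 and 10 or more motifs (529 genes in the last group). The percentage that fell was 9.51, 13.3, 18.5, 22.0, 32.8 and 46.3 in the same order, beside 20.2 over all genes. Unlabelled RNA followed the same order, with medians of 0.62 for no motif and 0.12 for 10 or more, while the medians of labelled against unlabelled RNA stayed at -0.47 to -0.51 in all 6 groups. The percentage of genes called lower in labelled against unlabelled RNA did follow the order, at 37.5, 42.7, 45.8, 49.1, 54.7 and 62.6, beside 46.6 over all genes. It also moved with total level, at 14.5 in the lowest and 82.3 in the highest sixth.

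The GC content of exons moved with the motif number and with the fold change. In sixths of the genes by GC content the labelled median was 0.23, 0.20, 0.11, -0.04, -0.24 and -0.49, with 4.53% lower in the first sixth (29.97 to 40.6% GC) and 55.1% in the last (59.4 to 83.9% GC). Unlabelled medians were 0.79 in the first and 0.03 in the last sixth, and labelled against unlabelled medians lay between -0.52 and -0.44, with 35.7% of genes lower in the first and 61.1% in the last. With the genes in 3 equal groups by GC content, the labelled median was 0.28, 0.21 and 0.13 for genes with no motif, 1 to 2 and 3 or more motifs in the lowest group, 0.12, 0.04 and 0.00 in the middle one, and -0.25, -0.31 and -0.40 in the highest. With the trend of GC content removed the medians by motif number ran between 0.05 (none) and -0.11 (10 or more). These are descriptions without a test, and the parts of GC content, of motifs and of depth, which moved with the group, were not tested.

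**Figure D5:**
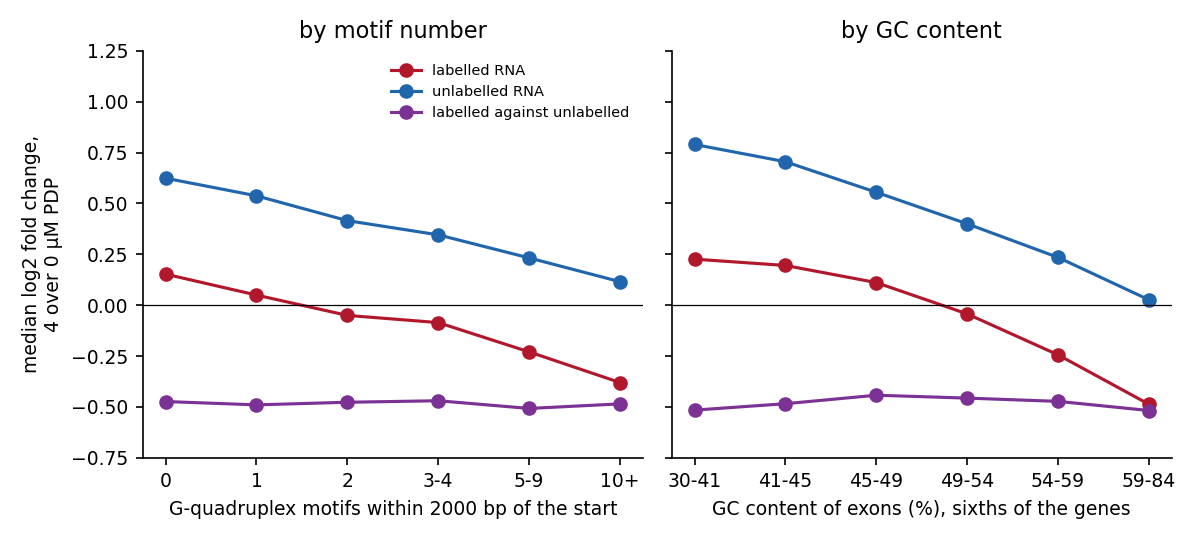
Median log2 fold change, 4 µM over 0 µM PDP, by number of motifs within 2000 bases of the start (left) and by sixths of exon GC content (right), for labelled, unlabelled and labelled against unlabelled RNA. Labelled and unlabelled medians fall together along both axes while labelled against unlabelled RNA stays between -0.52 and -0.44.

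Other properties moved with labelled RNA as well. By gene length, the median was -0.26 for the shortest sixth (up to 7.43 kb) and 0.24 for the longest (over 115 kb), where 22.0% of genes rose and 4.34% fell. By total level, it was 0.22 for the lowest and -0.33 for the highest sixth, of which 60.03% fell. Chromosome 19, which is gene-dense and GC-rich, had the lowest median (-0.31, with 41.3% of 1015 genes lower), followed by chromosomes 16 (-0.26), 22 (-0.20) and 17 (-0.16). Chromosomes 4 and 18 had the highest, at 0.13 each.

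The 8 µM libraries were set against the same 0 µM libraries, so the doses share their controls, and the values stand side by side only. At 8 µM 3895 genes fell (27.9%) and 1376 rose (9.86%) in labelled RNA, with a median of -0.12. The direct test of 8 against 4 µM called 693 genes lower (4.96%) and 82 higher (0.587%) in labelled RNA, 616 lower (4.41%) and 23 higher (0.165%) in labelled against unlabelled RNA, and 6 lower and 27 higher in unlabelled RNA (0.043% and 0.193%). The labelled share of the libraries was 17.2% at 0 µM, 13.8% and 13.5% at 4 µM, and 12.5% and 13.2% at 8 µM.

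Labelled JUN had 162 and 164 FPM at 0 µM, 376 and 406 at 4 µM, and 927 and 841 at 8 µM. Labelled TERT had 24.4 and 22.6 FPM at 0 µM, 15.5 and 15.1 at 4 µM, and 10.3 and 10.9 at 8 µM. VEGFA had 22.8 and 20.4 FPM at 0 µM, 10.8 and 12.7 at 4 µM, and 10.6 and 13.7 at 8 µM, where 8 µM minus 4 µM was 0.04 (edgeR adjusted p = 0.913). JUN and TERT thus moved further between 4 and 8 µM, and for VEGFA no such step was detected.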

How the data were processed

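Polyadenylated RNA of HEK293T cells was sequenced in 4 libraries, 2 at 4 µM and 2 at 0 µM PDP, each after 1 h of 500 µM s4U and acrylonitrile treatment. Adapter trimming by the authors used cutadapt 1.18, identical reads were reduced to 1, reads of ribosomal RNA were taken out by bowtie2, and HISAT2 2.1.0 mapped the remainder to GRCh37 (versions per the processing notes of the submitters). Unique proper pairs were assigned to GENCODE v19 genes, and mismatches at polymorphic positions or of a base quality below 41 were ignored. Whether counting used strand is not stated, so antisense and overlapping genes are uncertain, as are pseudogenes and copies. Mitochondrial genes were listed at 0.

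The deposited counts are whole fragments per gene, total and with a T-to-C mismatch, and the deposited FPM values (fragments per 1000000, the same scale as RPM) are those counts divided by the authors' library size. That size was the scale here. Counts were fitted with edgeR 4.0.16 (R 4.3.3, quasi-likelihood test, Benjamini-Hochberg adjustment, threshold 0.05) over the 6 PDP libraries, contrast 4 minus 0 µM, separately for labelled, total and unlabelled fragments. Labelled against unlabelled RNA was fitted on 12 count columns with a library block. Values after ± are SEs of log2 fold changes unless SD is written. Fits were tested on simulated data.

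Named are the genes the study discusses, the 10 largest called rises and falls of each kind whose libraries did not overlap, and up to 4 members of each list with the smallest adjusted p in labelled RNA, 182 in all, of which not every one is reported here. The members and the lists were chosen with earlier results of these data known. Motifs were searched in GRCh37, and GC content came from the exons of GENCODE v44 lifted to it, for 97.7% of the genes compared, with the trend removed by a spline of 6 degrees of freedom. The spline was fitted in each library together with the level of that library, so its removal also centres the libraries. Alternatives were centring on the median gene, TMM, DESeq2 1.42.0, limma 3.58.1 on log2(FPM + 0.1) or log2(FPM + 1), other filters, the 4 libraries alone, a replicate block, the GC trend, and each library left out. Chosen after seeing the data were summing the 0 µM libraries and thinning every library to the smallest. Replicate numbers did not pair the libraries. Intervals cover counting error only.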

Additional observations from a re-analysis of the deposited data

Results flagged for a closer look

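The direct test of 8 against 4 µM PDP passed the threshold for 27 of the 98 genes described that the naming rule chose. Over all genes it called 0.587% higher and 4.96% lower in labelled RNA, and 0.193% higher and 0.043% lower in unlabelled RNA. Apart from the genes the study discusses, the 98 were named by their results at 4 against 0 µM in these same libraries. Their count is thus no result about dose. The effect of the 27 against the shared 0 µM libraries differed between doses. In labelled RNA 5 genes stood higher at 8 µM, where the difference, 8 minus 4 µM on the log2 scale, was 1.178 for JUN, 1.19 for RP11-46C24.5, 0.93 for XXbac-B135H6.15, 0.95 for LYL1 and 0.69 for SPON2. Another 21 stood lower at 8 µM. The differences were -0.53 for TERT, -0.64 for HRAS, -0.58 for PHLDA3, -0.56 for MRPS6 and -0.37 for RPS2P55. For Notch and signalling genes they were -0.37 for NOTCH1, -0.30 for JAG2, -0.29 for HES4, -0.29 for AKT1 and -0.26 for PIM3. For genes of splicing and RNA 3' ends they were -0.34 for HNRNPAB, -0.34 for HNRNPU, -0.31 for INTS1, -0.29 for CPSF1 and -0.27 for PABPN1. The others were HSF1 at -0.30, CDT1 at -0.29, RPS2 at -0.23, UBE2S at -0.22, MAZ at -0.21 and ZBTB7A at -0.21. In unlabelled RNA 3 genes stood higher at 8 µM, with differences of 0.95 for RP11-46C24.5, 0.48 for JUN and 0.41 for ZFP36L2. The 8 µM libraries had depths of 22363992 and 18373693 fragments, so depth did not separate the doses as it separated 4 from 0 µM. The share of fragments inside genes did separate them, at 88.3% and 86.5% at 8 µM, against 89.7% and 88.8% at 4 µM. Its part in the differences between doses was not tested. Groups of 2 libraries allow no check for a library that stands apart.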

How the results depend on the processing

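In labelled RNA, where 1271 genes rose and 2820 fell, DESeq2, which gave 3519 genes no adjusted p, called 522 and 1468. The counts were, with the GC trend removed, 757 and 1717, the GC trend with the replicate block 778 and 1754, and no filter 604 that rose. Leaving out 1 library gave 596 to 1321 that rose and 1933 to 2390 that fell. In total RNA (7475 and 1096) centring gave 3793 and 3918, TMM 3841 and 3859, DESeq2 2762 and 3216, the GC trend removed 2251 and 3234, and with the block 2327 and 3287. In unlabelled RNA (8456 and 661) the same settings gave 3715 and 3894, 3875 and 3679, 2666 and 3284, 2140 and 3686, and 2258 and 3792. Labelled against unlabelled RNA (33 and 6500) gave 507 and 940 centred, 466 and 1010 with TMM, and 16 that rose at a labelled FPM of at least 2. Leaving out 1 library gave 6068 to 7014 and 683 to 1006 in total RNA, 7026 to 7836 and 354 to 643 in unlabelled RNA, and 24 to 32 and 4580 to 5744 in labelled against unlabelled RNA. Removal of the GC trend also centres each library, with medians of -0.01 in total and -0.03 in unlabelled RNA. Its counts thus do not reflect GC content alone. The cause of the shifts between settings was not tested. With the 0 µM libraries summed as 1, 1065 genes rose and 2521 fell in labelled RNA, and with every library thinned 971 and 2459.

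Same-numbered libraries did not deviate together (correlations of -0.02 to 0.01), so the replicate block is no paired analysis. With it 1243 genes rose and 2795 fell in labelled RNA, 7493 and 1090 in total RNA, 8497 and 659 in unlabelled RNA, and 34 and 6429 in labelled against unlabelled RNA.

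Of the 165 named genes called in labelled RNA, DESeq2 lost 19 of the 129 to which it gave an adjusted p, no filter 23, thinning 14 and single libraries 14 to 31, and the GC trend 54 of 157. With 2 libraries a group, and with depth and the share of fragments in genes different between the groups, effects of PDP cannot be told apart from those of library preparation.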
